A study of Saccharomyces cerevisiae with 21 samples.

Results

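The yeast strain swi3-E815X, whose only copy of SWI3 carries the E815X change, was compared with swi3del, which has no SWI3, by sequencing of messenger RNA. These groups hold 6 of the 21 libraries of the series, 3 each, and were taken by their sample titles. Per the labels, all are Saccharomyces cerevisiae of the W303 background in which the chromosomal SWI3 is deleted. The genotype of swi3-E815X adds swi3-E815X::LEU2 and that of swi3del adds LEU2 alone, and the 3 libraries of SWI3, with SWI3::LEU2 on the same deletion, are set beside them as the wild type. Cells were grown in YPD, a rich glucose medium, to mid-log phase, each replicate on a day of its own, and caught on a filter under vacuum. The comparison asks which levels of RNA the cells with the E815X allele share with cells that lack Swi3 altogether, and which they do not. All values are of cell populations and of polyadenylated RNA, so fewer cells that express a gene and less RNA per cell cannot be told apart.

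Swi3 is a structural subunit of Swi/Snf, a large complex that uses ATP to slide or remove nucleosomes from DNA. It carries SWIRM and SANT domains and a coiled coil near its C terminus, and holds other subunits of the complex together. The complex was found in yeast through mutants that could not switch mating type, since they did not express HO, and through mutants that could not ferment sucrose, since they did not derepress SUC2. It is also known for opening chromatin at promoters of the phosphate pathway and for work with the activator Gcn4 at amino acid genes.

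The place of the allele was read from the R64 genome. SWI3 (YJL176C) lies on the minus strand of chromosome X, from 92053 to 94530, and has 825 codons before its stop. The last 66 bases of the reading frame, chromosome X 92053 to 92118, are printed 5′ to 3′ in the direction of the gene because they show how near the end the change lies, with the codon named by the allele in capitals.
SWI3: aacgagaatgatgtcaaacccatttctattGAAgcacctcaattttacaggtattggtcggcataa
The codon that E815X names by its number, counted from 1 at the start codon, is GAA in R64 and encodes glutamate, the E of that name. X after the position is the usual sign for a stop. A stop there would leave 814 of 825 codons (98.67%) and remove the last 11. The sequence of the allele itself was not analysed here.

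Levels are given as TPM, a count of transcripts scaled to gene length and to the total of a library. Sums of TPM lay between 961639 and 1000396 in these 9 libraries. Each library held 6311 to 6385 genes at 1 TPM or more. Across genes, replicates of a group correlated at 0.9874 to 0.992. TPM does not keep the number of reads, so depth is unknown. Differences are those of log2(TPM + 1), swi3-E815X minus swi3del unless another pair is named, with their standard error (SE). For genes of low level the added 1 makes them smaller than the ratio of TPM.

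SWI3 RNA was examined first. It had 36.5, 34.6 and 35.4 TPM in the swi3-E815X libraries, 0.173, 0.148 and 0.0589 TPM in the swi3del libraries and 36.6, 38.6 and 35.9 TPM in the SWI3 libraries. The allele was thus expressed near the wild-type level, with a difference to SWI3 of -0.06 and a 95% interval of -0.30 to 0.18. LEU2, the marker of the constructs, had 0.252 ± 0.104 TPM in swi3-E815X, 136 ± 1.84 TPM in swi3del and 0.226 ± 0.0886 TPM in SWI3 (SD, n = 3 each). LEU2 RNA was near 0 in swi3-E815X and SWI3 although their genotypes name LEU2. For LEU2 (difference to swi3del -6.78), the build of the strains and the state of Swi3 cannot be told apart, and whether the difference in LEU2 had a part in those of other genes was not tested. Of the 11 genes listed for Swi/Snf subunits or tightly bound partners, SWI3 among them, 2 were higher in swi3-E815X than in swi3del, 3 were lower and 6 did not pass, while 5 were higher and 1 was lower after median-ratio scaling of the libraries. The 5 of 11 called stand beside 67.4% over all genes, and SWI3 itself is among them. Without swi3del replicate 2, 5 were lower. ARP9, an actin-related subunit, was higher (0.49 ± 0.10). SWP82, an accessory subunit, had 26.8 ± 3.33 TPM in swi3-E815X, 58.2 ± 8.25 TPM in swi3del and 27.5 ± 1.40 TPM in SWI3 (difference to swi3del -1.09 ± 0.12, adjusted p = 2.22e-05). The lower values of SNF5 and SNF6 (-0.42 and -0.37) did not pass after that scaling.

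Most of the transcriptome differed between the allele and the deletion. Of 6392 genes tested, 4308 (67.4%) passed at an adjusted p under 0.05, from limma with Benjamini-Hochberg adjustment over all genes tested. Of all genes, 1280 (20%) were higher in swi3-E815X and 3028 (47.4%) were lower. The 3 libraries of swi3-E815X did not overlap with those of swi3del for 4582 genes (71.7%). At 2-fold or more, 191 (2.99%) were higher and 1002 (15.7%) were lower. Between swi3-E815X and SWI3, by contrast, 565 of 6395 genes (8.84%) passed, 196 (3.06%) of them higher and 369 (5.77%) lower in swi3-E815X. At 2-fold or more, 29 (0.453%) were higher and 90 (1.41%) were lower. The comparisons share libraries, and the counts are given side by side only.

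The median of all genes was not 0 but -0.25. After median-ratio scaling, which puts that median at 0.00, 2102 genes were higher and 2110 were lower. Directions of small differences therefore rest on the scaling, and gene lists are read below against the median of -0.25.

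Among genes higher in swi3-E815X, the largest difference was that of YHB1 (YGR234W, chromosome VII 959904 to 961103), which encodes a flavohaemoglobin that breaks down nitric oxide. It had 1379.7, 1591 and 1646 TPM in swi3-E815X, 50.5, 43.6 and 44.4 TPM in swi3del and 1623, 1669 and 1667 TPM in SWI3. All swi3-E815X libraries lay far above all swi3del libraries, and one of them reached the range of SWI3 (5.03 ± 0.09, adjusted p = 2.68e-10). HO, the endonuclease that starts mating-type switching (YDL227C, chromosome IV 46271 to 48031), had 53.6, 59.4 and 64.4 TPM in swi3-E815X, 3.48, 3.71 and 2.85 TPM in swi3del and 71.0, 66.5 and 72.7 TPM in SWI3. The allele libraries were all above those of the deletion and all below those of SWI3 (difference to swi3del 3.79 ± 0.12, adjusted p = 4.93e-09), while the difference to SWI3 did not pass (-0.24, 95% interval -0.46 to -0.02, adjusted p = 0.178).

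Other genes with large rises were DSE4, INA1 and ENO2. DSE4, a daughter-cell glucanase that helps degrade the septum, had 218 ± 8.41 TPM in swi3-E815X, 23.8 ± 3.10 TPM in swi3del and 180.3 ± 5.21 TPM in SWI3 (3.15 ± 0.10). INA1 had 403 ± 21.8 TPM in swi3-E815X, 22.7 ± 0.642 TPM in swi3del and 484 ± 28.2 TPM in SWI3 (4.09 ± 0.08). ENO2, the main enolase of fermenting cells, had 8590.3, 9111 and 7957 TPM in swi3-E815X, 1562, 1393 and 1497 TPM in swi3del and 9532, 9225 and 8927 TPM in SWI3. It was among the most abundant messages that differed, and no library of swi3-E815X came near those of swi3del (2.53 ± 0.08, adjusted p = 5.18e-09). ALD6, an acetaldehyde dehydrogenase (1.60 ± 0.07), ASN1, an asparagine synthetase (1.54 ± 0.08), and the low-affinity glucose transporter HXT3 (1.36 ± 0.09) also rose. RPL22A, a ribosomal protein gene, met the same rule but varied within groups, with 32.5, 66.3 and 177 TPM in swi3-E815X, 3.74, 6.07 and 4.80 TPM in swi3del and 36.4, 103 and 11.3 TPM in SWI3 (3.67 ± 0.69, adjusted p = 0.00817).

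Genes far lower in swi3-E815X than in swi3del were led, after LEU2, by PIR3, a cell wall protein (YKL163W, chromosome XI 144401 to 145378). It had 5.73, 4.98 and 11.5 TPM in swi3-E815X, 496, 431 and 518 TPM in swi3del and 8.50, 9.76 and 7.10 TPM in SWI3. The groups with and without Swi3 did not overlap, and the libraries of swi3-E815X spanned those of SWI3 (-5.92 ± 0.30, adjusted p = 1.59e-05). GUT2, the mitochondrial glycerol-3-phosphate dehydrogenase (YIL155C, chromosome IX 51759 to 53708), had 18.3, 18.4 and 19.8 TPM in swi3-E815X, 295, 319 and 278 TPM in swi3del and 14.7, 14.2 and 13.7 TPM in SWI3. Every swi3-E815X library was far below every swi3del library, and each stood above all SWI3 libraries (-3.91 ± 0.08, adjusted p = 4.85e-10, and 0.38 ± 0.08 against SWI3, adjusted p = 0.00681).

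SED1, an abundant glycoprotein of the stationary-phase wall (YDR077W, chromosome IV 600793 to 601809), had 4781, 4209 and 4817 TPM in swi3-E815X, 31041, 32414 and 30377 TPM in swi3del and 4557, 4326 and 4042 TPM in SWI3. It stood several-fold higher in swi3del than in the other strains, and the libraries of swi3-E815X overlapped those of SWI3 (-2.77 ± 0.08, adjusted p = 3.08e-09). RTS3, a component of a protein phosphatase complex, had 55.6 ± 4.25 TPM in swi3-E815X, 884 ± 3.11 TPM in swi3del and 39.4 ± 2.58 TPM in SWI3 (-3.97 ± 0.08). SNZ1, which makes vitamin B6, fell by 3.32 ± 0.11 and ADR1, an activator of glucose-repressed genes, by 2.87 ± 0.09.

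**Figure D1:**
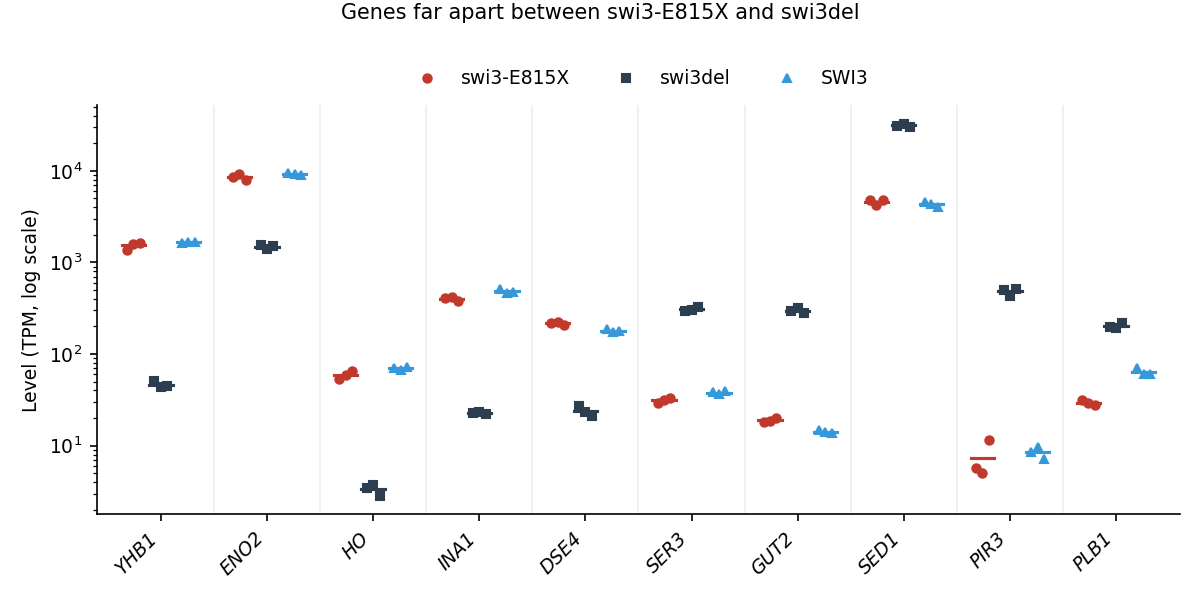
Levels of 10 genes in TPM (log axis) in each of the 3 libraries of swi3-E815X (circles), swi3del (squares) and SWI3 (triangles), with a bar at each group's mean. The libraries of swi3-E815X lie near those of SWI3 and far from those of swi3del for YHB1 through PIR3, while PLB1 at the right is lower in swi3-E815X (29.4 TPM) than in swi3del (201 TPM) or SWI3 (64.3 TPM).

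Gene lists by function were then counted. Genes that make ribosomes were higher in the allele nearly throughout. Of 73 genes of ribosome biogenesis, 71 were higher than in swi3del and 0 were lower (20% and 47.4% over all genes), with a median difference of 0.83, while their median difference to SWI3 was -0.09. DBP2, an RNA helicase, rose by 1.87 ± 0.09 and NSR1, a nucleolar protein of pre-rRNA processing, by 1.55 ± 0.08. Of 136 genes of cytosolic ribosomal proteins, 129 were higher and 2 were lower, with a median of 0.76. RPL16A is an example, with 1231 ± 15.4 TPM in swi3-E815X, 595 ± 24.1 TPM in swi3del and 1265 ± 72.3 TPM in SWI3. The 2 lower ones, RPS14B and RPL15B (-0.31 and -0.27, named after their values were seen), did not pass after median-ratio scaling, nor did RPL15B without swi3-E815X replicate 1 or 2 or swi3del replicate 1 or 3 (adjusted p between 0.0769 and 0.123). Of 19 subunits of RNA polymerases I and III, which make ribosomal and transfer RNA, 16 were higher and 0 were lower.

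Histone genes, which are expressed when DNA is replicated, were higher in 7 of 10 cases, with a median of 0.72. Over all genes 20% were higher and 47.4% were lower. HTB2, an H2B gene, had 428 ± 27.5 TPM in swi3-E815X, 160.1 ± 4.998 TPM in swi3del and 468 ± 26.1 TPM in SWI3 (1.41 ± 0.08). The 1 lower gene was HHO1, the linker histone (-0.46, named after its value was seen), which did not pass after median-ratio scaling. The genes of mitochondrial ribosomal proteins stood apart from the cytosolic ones, with 6 of 72 higher and 17 lower, a median of -0.09, and 30 higher and 4 lower after median-ratio scaling. The number lower was 7 and 11 without swi3-E815X replicates 1 and 2, and 8 and 11 without swi3del replicates 2 and 3.

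Genes of respiration, of carbon sources other than glucose and of stress lay mostly lower in the allele. Of 36 genes of the respiratory chain and ATP synthase, 0 were higher and 33 were lower (20% and 47.4% over all genes), with a median of -0.95. CYC1, cytochrome c, fell by 1.80 ± 0.10. Of 18 genes of the tricarboxylic acid cycle, 15 were lower, among them citrate synthase CIT1 (-2.21 ± 0.09). Glucose-repressed genes were lower in 27 of 30 cases, with a median of -1.30. The 1 higher gene was ADH2, the alcohol dehydrogenase that oxidises ethanol, which had 528, 549 and 413 TPM in swi3-E815X, 196, 171 and 212 TPM in swi3del and 622, 555 and 540.2 TPM in SWI3. Its libraries of swi3-E815X all lay above those of swi3del (1.35 ± 0.12, adjusted p = 7.36e-06). However, ADH2 is close in sequence to the abundant ADH1 and could share reads with it. ADH1 had 7054 ± 873 TPM in swi3-E815X, 2712 ± 374 TPM in swi3del and 7539 ± 468 TPM in SWI3 (1.38 ± 0.12 against swi3del). How much of the ADH2 value came from reads of ADH1 was not tested.

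Of 30 genes of the Msn2 and Msn4 stress response, 29 were lower (47.4% over all genes), with a median of -1.35. The list's 1 higher gene, MSN2 itself (0.30, named after its value was seen), did not pass without swi3-E815X replicate 3 (adjusted p = 0.0676) or swi3del replicate 1 or 3 (adjusted p = 0.0853 and 0.0801). All 16 genes of trehalose and glycogen, the reserve sugars, were lower, with a median of -1.43 and TSL1, a subunit of trehalose synthase, at -2.01 ± 0.09. The 11 COS genes, a family mostly near chromosome ends, were all lower than in swi3del (median -1.27). Against SWI3, 8 of them were higher and 0 were lower (3.06% and 5.77% over all genes). Their median against SWI3 was 0.33, compared with -0.03 over all genes. Lower than in swi3del were also 14 of 15 seripauperin genes tested, with PAU24 higher (1.20, named after its value was seen). Many members of both families, though not all, are near-identical and share reads.

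Glycolysis did not move as a whole, with 9 of 18 genes higher and 7 lower (20% and 47.4% over all genes). PGI1 (0.03) and PFK1 (0.09) did not pass. At several of its lower steps the main forms of fermenting cells were higher, such as ENO2 (2.53), the phosphoglycerate mutase GPM1 (1.61) and the glyceraldehyde-3-phosphate dehydrogenases TDH2 (1.01) and TDH3 (0.85). Their minor or glucose-repressed counterparts were lower, such as ENO1 (-0.88), GPM2 (-2.31) and TDH1 (-0.37, which did not pass after median-ratio scaling). The same held for pyruvate kinase, with CDC19 at 0.49 and PYK2 at -1.63. All 3 hexose kinases were lower, HXK2, the main one of glucose-grown cells, by less (-0.57) than the others. GLK1 stood lower, with 87.5, 79.1 and 89.9 TPM in swi3-E815X, 580.5, 643 and 583 TPM in swi3del and 93.3, 83.7 and 73.3 TPM in SWI3 (-2.80 ± 0.08, adjusted p = 3.29e-09), and HXK1 was lower as well (-1.84 ± 0.09). The libraries of the allele overlapped those of SWI3 for GLK1 and lay far from those of the deletion. HXK2, PGI1, PFK1, GPM1, GPM2, TDH1, TDH2, TDH3, ENO1, CDC19 and PYK2 were named after their values were seen.

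**Figure D2:**
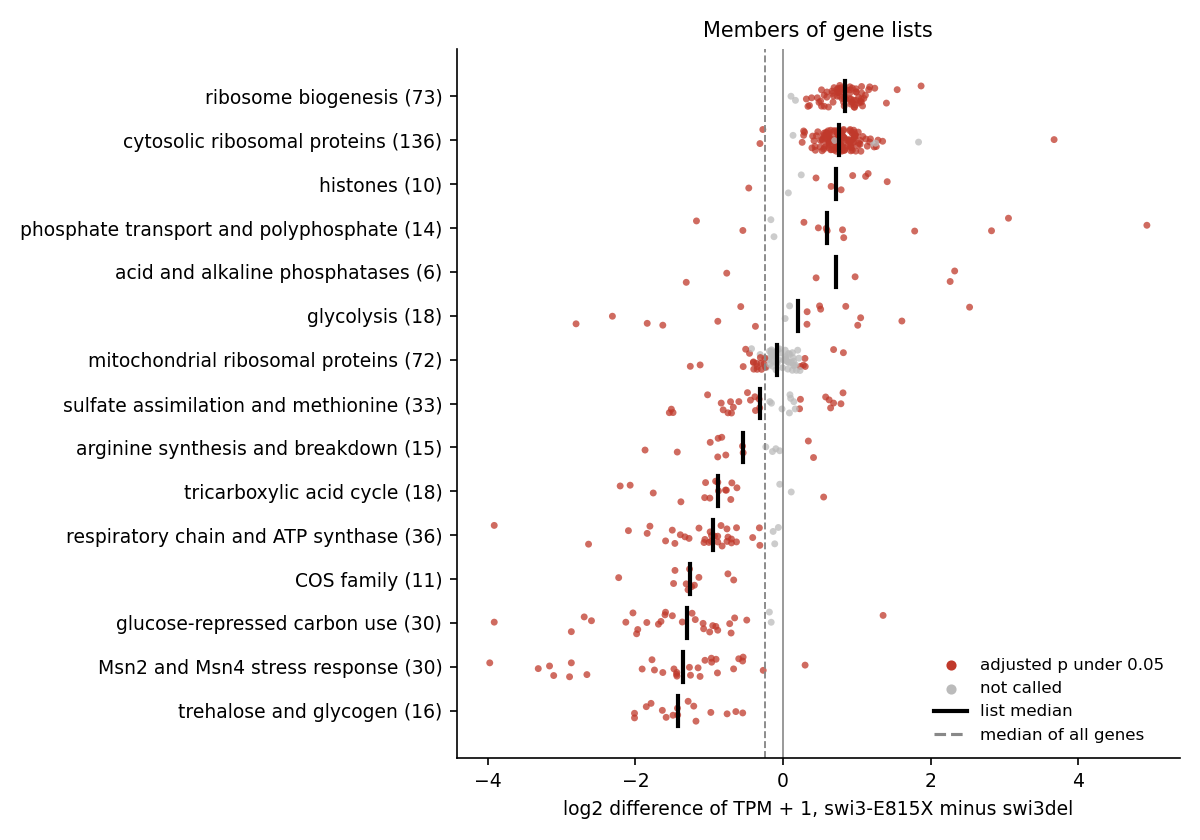
Difference of log2(TPM + 1), swi3-E815X minus swi3del, for each member of 15 gene lists, with the number tested in brackets. Red points passed at an adjusted p under 0.05, grey points did not, black bars are list medians and the dashed line is the median of all genes (-0.25): the medians of the lists of ribosome production lie to its right, those of respiration, reserve sugars and stress to its left, and members of the phosphate and glycolysis lists lie on both sides.

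The genes that are best known as Swi/Snf targets did not all move one way. Of 12 listed, 6 were higher and 5 were lower in swi3-E815X than in swi3del (20% and 47.4% over all genes). HO, PHO84, PHO5, ADH2 and the histone genes HTA1 and HTB1 were the higher ones. HTA1 had 797 ± 30.2 TPM in swi3-E815X, 358 ± 19.4 TPM in swi3del and 788 ± 16.9 TPM in SWI3. ADH2, which could share reads with ADH1, rose by about as much as ADH1 did (1.35 and 1.38). SUC2, the invertase, had 75.3, 77.6 and 66.2 TPM in swi3-E815X, 139, 151 and 136 TPM in swi3del and 72.4, 67.9 and 59.5 TPM in SWI3. In this glucose medium it was thus higher without Swi3 than with either form of it (-0.95 ± 0.09, adjusted p = 5.64e-06). INO1, the inositol synthase, had 4.84 ± 0.594 TPM in swi3-E815X, 21.9 ± 2.17 TPM in swi3del and 7.38 ± 0.683 TPM in SWI3 (-1.97 ± 0.14), and the flocculin gene FLO11 was lower by 1.22 ± 0.12 on the log2 scale.

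SER3 and SRG1 are the textbook pair for transcriptional interference, in which transcription of the noncoding SRG1 across the SER3 promoter keeps SER3, the first enzyme of serine synthesis, low. SER3 (YER081W, chromosome V 322686 to 324095) had 29.1, 31.8 and 33.2 TPM in swi3-E815X, 297, 304 and 323 TPM in swi3del and 38.3, 36.4 and 39.0 TPM in SWI3. The libraries of the allele lay below all others, by far below those of the deletion (-3.26 ± 0.08, adjusted p = 1.61e-09). SRG1 (chromosome V 322212 to 322762) had 25.2, 29.0 and 30.8 TPM in swi3-E815X, 63.0, 53.6 and 60.0 TPM in swi3del and 30.6, 28.8 and 27.7 TPM in SWI3. It too was lower in swi3-E815X than in swi3del (-1.03 ± 0.10, adjusted p = 8.21e-06), but SRG1 overlaps the start of SER3 in the annotation, so reads of the overlap may count for either. Of the 11 genes of the serine list, SER3 and SRG1 were the only ones past 2-fold, both lower (15.7% over all genes).

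The phosphate genes differed widely from each other. In phosphate-replete cells the cyclin-kinase pair Pho80 and Pho85 keeps the activator Pho4 out of the nucleus, and on starvation Pho4 turns on secreted phosphatases, transporters and polyphosphate enzymes. Pho4 binds E-boxes with the core CACGTG, and CACGTT at lower affinity. Short stretches with such cores upstream of 4 genes are printed in the direction of the gene, since these genes gave very different values with the allele, with the core in capitals.
PHO84 (minus strand, chrXIII:26194-26229, core 414 bases before the start codon): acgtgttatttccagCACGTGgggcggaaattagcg
SPL2 (minus strand, chrVIII:375227-375262, core 147 bases before): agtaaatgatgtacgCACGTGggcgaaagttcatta
PHO12 (plus strand, chrVIII:551801-551836, core 283 bases before): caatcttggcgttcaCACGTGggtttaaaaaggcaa
PHO5 (minus strand, chrII:431184-431219, core 253 bases before): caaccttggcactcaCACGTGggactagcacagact
Coordinates and sequences are those of R64. Of 600 bases before the start codon, searched on both strands, CACGTG occurred for 434 of 6005 nuclear coding genes (7.23%), for 12 of 15 genes of phosphate transport and polyphosphate and for 4 of 6 phosphatase genes. CACGTT occurred for 18.8% of the nuclear coding genes. SPL2 held 4 of the CACGTG cores, PHO84 and VTC3 2 each, and PHO5, PHO11, PHO12, PHO89 and PHM6 1 each. PHM8 held 0, and PHO3 held neither CACGTG nor CACGTT. Whether the number of cores bears on the levels was not tested.

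PHO84 (YML123C, chromosome XIII 24037 to 25800), which encodes the phosphate transporter of high affinity, had 859.6, 935.01 and 839 TPM in swi3-E815X, 32.0, 26.9 and 25.1 TPM in swi3del and 1151, 1157 and 1098 TPM in SWI3. The libraries of the allele lay far above those of the deletion and a little below those of SWI3 (difference to swi3del 4.93 ± 0.10, adjusted p = 2.68e-10). The difference to SWI3 was -0.37 ± 0.09 (adjusted p = 0.0168) and did not pass without swi3-E815X replicate 1 or 3 or SWI3 replicate 1 or 2 (adjusted p between 0.0609 and 0.068). A noncoding gene overlaps PHO84 on the other strand, and whether reads were counted by strand is not given in the sources used here. A level between the groups can be placed as a share of the log2 distance from swi3del (0%) to SWI3 (100%), and PHO84 stood at 93.0% (92.1% to 93.6% with any 1 of the 9 libraries left out).

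PHO5, the main secreted acid phosphatase (YBR093C, chromosome II 429548 to 430951), stood at the other end. It had 31.4, 28.6 and 33.1 TPM in swi3-E815X, 23.3, 20.6 and 23.5 TPM in swi3del and 213, 201 and 220.0 TPM in SWI3. The allele libraries were just above those of the deletion and several times below those of SWI3, a share of 14.1% (12.5% to 15.9%). PHO89, the sodium-coupled phosphate transporter, had 15.5, 16.6 and 20.02 TPM in swi3-E815X, 10.2, 13.7 and 12.7 TPM in swi3del and 85.4, 89.0 and 78.3 TPM in SWI3, a share of 17.7% (13.97% to 20.5%). PHM8, a nucleotide and lysophosphatidate phosphatase, had 17.5, 19.5 and 17.5 TPM in swi3-E815X, 17.5, 20.3 and 24.1 TPM in swi3del and 66.4, 53.1 and 56.7 TPM in SWI3. Its libraries of allele and deletion overlapped, and both lay below those of SWI3. PHO5, PHO89 and PHM8 were chosen as lying within 0.5 on the log2 scale of the deletion and at least 2-fold from SWI3, so these values are descriptions and carry no test. The authors' deposited table gives PHO5 a log2 fold change of -2.74 in swi3-E815X and -3.50 in swi3del, each against SWI3.

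Other phosphatase genes lay between. PHO12 (YHR215W, chromosome VIII 552099 to 553502) had 58.6, 65.4 and 73.9 TPM in swi3-E815X, 10.9, 11.98 and 14.3 TPM in swi3del and 589.5, 623 and 586 TPM in SWI3. All 3 groups stood apart, the allele several-fold above the deletion and several-fold below SWI3 (2.32 ± 0.12 against swi3del, adjusted p = 1.27e-07, and -3.17 ± 0.10 against SWI3, adjusted p = 6.07e-09), a share of 42.3%. PHO11, its near-identical copy, gave 41.5%, and reads cannot be assigned with certainty between them. PHO3, the constitutive phosphatase next to PHO5, had 87.1 ± 4.92 TPM in swi3-E815X, 44.1 ± 6.77 TPM in swi3del and 303 ± 26.8 TPM in SWI3 (0.98 ± 0.11 against swi3del), a share of 35.3%. PHO8, the vacuolar alkaline phosphatase, was lower in swi3-E815X than in either other strain, with 102 ± 3.50 TPM, against 173 ± 3.96 TPM in swi3del and 152 ± 3.84 TPM in SWI3 (-0.76 ± 0.07 against swi3del and -0.58 ± 0.06 against SWI3).

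Of 14 genes of phosphate transport and polyphosphate that were tested, 10 were higher in swi3-E815X than in swi3del and 2 were lower. These counts stand beside 20% and 47.4% over all genes, and after median-ratio scaling 1 was lower. Against SWI3, 1 was higher and 10 were lower (3.06% and 5.77% over all genes). SPL2, an inhibitor of low-affinity phosphate uptake, had 15.3, 18.5 and 21.5 TPM in swi3-E815X, 0.877, 1.75 and 1.43 TPM in swi3del and 64.6, 75.4 and 85.1 TPM in SWI3. The 3 groups did not overlap (3.05 ± 0.21 against swi3del, adjusted p = 6.88e-07), and the share was 60.8%. PHM6 gave 61.2% (2.82 ± 0.20 against swi3del). The subunits of the vacuolar polyphosphate polymerase were also between the other strains, with shares of 66.0% for VTC1, 48.3% for VTC2, 57.2% for VTC3 and 55.3% for VTC4. PHO81, the inhibitor of Pho80 and Pho85 and itself a Pho4 target, had 43.9 ± 2.04 TPM in swi3-E815X, 19.9 ± 1.41 TPM in swi3del and 74.3 ± 5.31 TPM in SWI3 (1.10 ± 0.09 against swi3del). PHO4 had 29.7 ± 2.37 TPM in swi3-E815X, 37.4 ± 2.97 TPM in swi3del and 28.9 ± 3.88 TPM in SWI3 (-0.32 ± 0.10 against swi3del, which did not pass after median-ratio scaling). The low-affinity transporters differed from each other, PHO91 being lower than in swi3del (-1.17 ± 0.08), while PHO87 had 75.9, 73.8 and 66.8 TPM in swi3-E815X, 76.8, 80.9 and 78.0 TPM in swi3del and 30.7, 28.1 and 27.7 TPM in SWI3. PHO87 was thus high in both mutants, at a share of 8.66%.

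**Figure D3:**
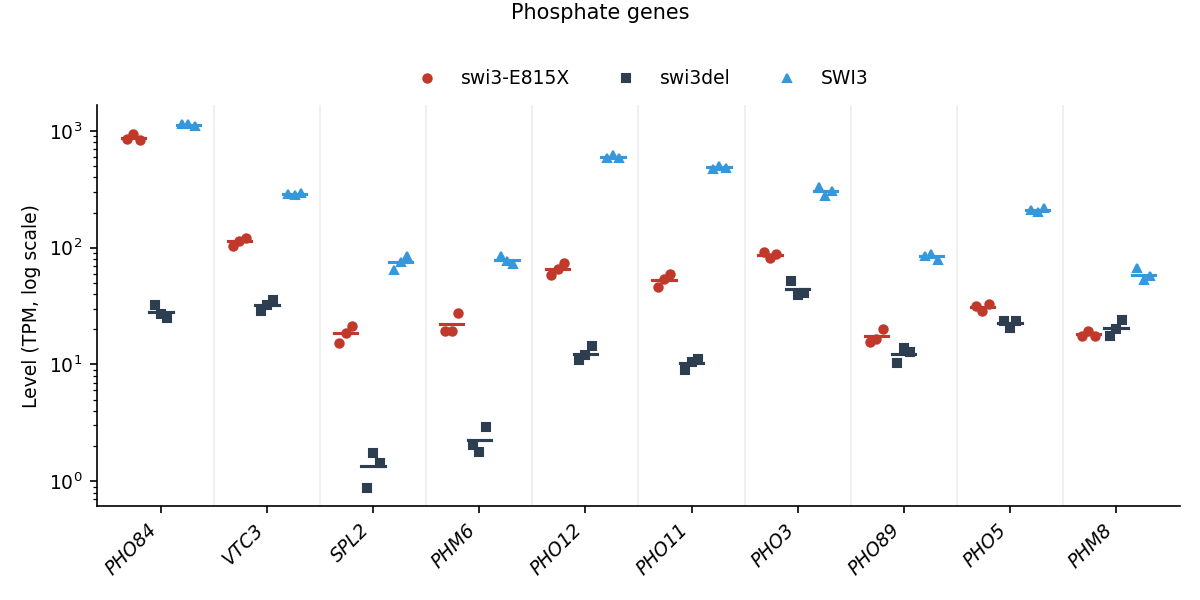
Levels of 10 phosphate genes in TPM (log axis) in each library of swi3-E815X (circles), swi3del (squares) and SWI3 (triangles), with a bar at each group's mean. From left to right swi3-E815X moves from near SWI3 (PHO84, share 93.0%) through levels between the strains (VTC3 to PHO3) to near swi3del (PHO89, PHO5 and PHM8).

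Arginine genes were counted against both other strains. Of 15 genes, 9 were lower in swi3-E815X than in swi3del and 2 were higher, ARG3 and ARG8 (47.4% and 20% over all genes), with a median of -0.55. ARG8, acetylornithine aminotransferase, did not pass without swi3-E815X replicate 1 or swi3del replicate 1 (adjusted p = 0.0604 and 0.0665). ARG3 did not pass when 21 libraries shared the estimate of spread (adjusted p = 0.164). Against SWI3, 9 were higher and 2 were lower (3.06% and 5.77% over all genes), with a median of 0.59, compared with -0.03 over all genes. ARG1, argininosuccinate synthetase (YOL058W, chromosome XV 219211 to 220473), had 226, 205 and 207 TPM in swi3-E815X, 233, 223 and 249.6 TPM in swi3del and 63.7, 63.8 and 50.3 TPM in SWI3. Allele and deletion overlapped, and both lay several-fold above SWI3. ARG3, ornithine carbamoyltransferase (YJL088W, chromosome X 268799 to 269815), had 102, 80.5 and 81.8 TPM in swi3-E815X, 65.1, 69.3 and 62.4 TPM in swi3del and 23.9, 19.97 and 15.1 TPM in SWI3, so the allele stood above even the deletion. Like PHO5, both were chosen for lying near the deletion and carry no test.

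Other genes of the pathway lay between the strains. ARG5,6, which encodes a pair of mitochondrial enzymes, had 139.9 ± 4.55 TPM in swi3-E815X, 204 ± 2.52 TPM in swi3del and 47.2 ± 3.49 TPM in SWI3 (-0.54 ± 0.07 against swi3del, adjusted p = 6.33e-05), a share of 25.9%. ARG4, argininosuccinate lyase, gave 58.7% (-1.43 ± 0.08 against swi3del and 1.01 ± 0.07 against SWI3). CPA1, a subunit of carbamoyl phosphate synthetase, gave 52.0%. YOR302W, the upstream reading frame that acts on CPA1 translation, had 532 ± 33.7 TPM in swi3-E815X, 707 ± 134 TPM in swi3del and 204 ± 32.8 TPM in SWI3, and lies on the same message as CPA1. Breakdown enzymes went another way. CAR1, arginase, had 97.7, 104 and 83.6 TPM in swi3-E815X, 345, 331 and 370.0 TPM in swi3del and 129.6, 125 and 120.3 TPM in SWI3, the allele being lowest (-1.87 ± 0.09 against swi3del, adjusted p = 1.02e-07). CAR2, ornithine transaminase, was also lowest in the allele, with 13.4 ± 0.314 TPM, against 27.8 ± 3.71 TPM in swi3del and 37.6 ± 5.64 TPM in SWI3 (-0.99 ± 0.11 against swi3del).

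Genes of sulfate assimilation and methionine were counted in the same way. Of 33 tested, 8 were higher and 17 were lower in swi3-E815X than in swi3del (20% and 47.4% over all genes), with a median of -0.32, and 14 were higher and 12 lower after median-ratio scaling. Against SWI3, 18 were higher and 1 was lower (3.06% and 5.77% over all genes), with a median of 0.39. The lower one was CYS4, cystathionine beta-synthase (-0.65 ± 0.07). MET3, ATP sulfurylase, which starts the pathway (YJR010W, chromosome X 456239 to 457774), had 127, 137 and 132 TPM in swi3-E815X, 93.7, 79.9 and 83.3 TPM in swi3del and 37.9, 40.4 and 33.4 TPM in SWI3. It was higher in the allele than in both other strains, without overlap (0.62 ± 0.08 against swi3del, adjusted p = 8.87e-05, and 1.80 ± 0.09 against SWI3, adjusted p = 2.12e-07). MET14, the next enzyme, had the same order, with 247 ± 12.2 TPM in swi3-E815X, 143 ± 11.3 TPM in swi3del and 92.4 ± 7.59 TPM in SWI3 (0.78 ± 0.08 against swi3del).

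Further members were level with the deletion or between the strains. MET6, methionine synthase, had 908, 963 and 799 TPM in swi3-E815X, 896, 926 and 867 TPM in swi3del and 434, 438 and 396 TPM in SWI3. Allele and deletion overlapped, well above every SWI3 library, with a difference of -0.01 and a 95% interval of -0.20 to 0.17 (0.25 and an adjusted p of 0.0404 after median-ratio scaling). STR3, cystathionine beta-lyase, had 41.4 ± 1.27 TPM in swi3-E815X, 35.1 ± 2.39 TPM in swi3del and 13.2 ± 1.94 TPM in SWI3. The sulfate permease SUL2 had 19.8 ± 3.13 TPM in swi3-E815X, 25.9 ± 2.30 TPM in swi3del and 6.20 ± 0.935 TPM in SWI3, and both were chosen for lying near the deletion. The other sulfate permease, SUL1, did not share this, with 12.4 ± 0.168 TPM in swi3-E815X, 38.2 ± 3.04 TPM in swi3del and 12.8 ± 1.81 TPM in SWI3 (-1.54 ± 0.09 against swi3del). MET17, O-acetylhomoserine sulfhydrylase, was between, at a share of 34.2%, and MET28, a cofactor of the activator Met4, at 32.4%. CACGTG, the core bound by Cbf1 as well as by Pho4, occurred upstream of 23 of the 33 genes (69.7%). It occurred upstream of 0 of 14 arginine genes that could be searched. Both counts stand beside 7.23% of all nuclear coding genes.

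**Figure D4:**
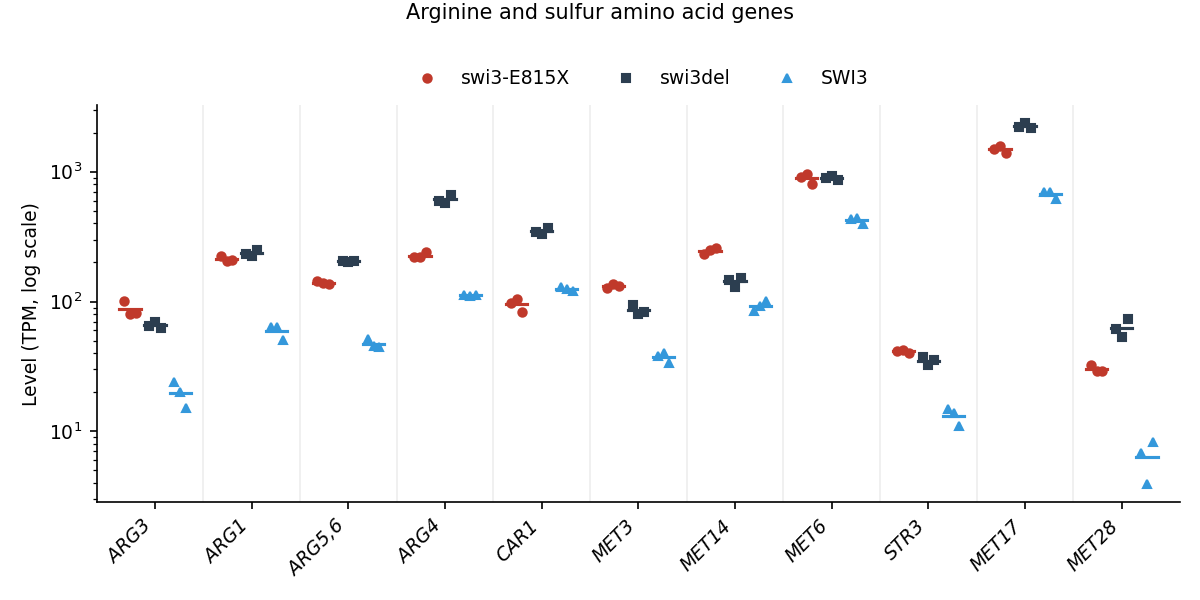
Levels of 11 genes of arginine and sulfur amino acid metabolism in TPM (log axis) in each library of swi3-E815X (circles), swi3del (squares) and SWI3 (triangles), with a bar at each group's mean. ARG3, MET3 and MET14 are highest in swi3-E815X, ARG1 and MET6 are level with swi3del, and CAR1 is lowest in swi3-E815X (94.999 TPM, against 349 TPM in swi3del and 125 TPM in SWI3).

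The genes nearest the deletion by the same rule also included TIR3, a cell wall mannoprotein of cold and low oxygen. It had 5.44 ± 0.794 TPM in swi3-E815X, 7.49 ± 1.71 TPM in swi3del and 17.2 ± 1.03 TPM in SWI3. With PHO5, PHO89, ARG3, ARG1, PHM8, STR3, SUL2, YOR302W and PHO87 it made up the 10 genes with the largest difference to SWI3 under that rule. Most of the 10 belong to phosphate, arginine or sulfur metabolism. How common these functions were among all genes that met the rule was not counted.

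The MRH1 family of membrane proteins was divided. MRH1, a plasma membrane protein (YDR033W, chromosome IV 508147 to 509109), had 360.0, 397 and 316 TPM in swi3-E815X, 108, 108 and 102 TPM in swi3del and 1145, 1021 and 1083 TPM in SWI3. The 3 groups did not overlap, and the share was 52.1% (1.74 ± 0.09 against swi3del, adjusted p = 1.36e-07). Its relative YRO2 had 3.55 ± 0.359 TPM in swi3-E815X, 7.40 ± 2.09 TPM in swi3del and 29.99 ± 3.67 TPM in SWI3, below the deletion (-0.85 ± 0.22, adjusted p = 0.00626, which did not pass after quantile scaling). HSP30, the third member, had 8.70 ± 0.974 TPM in swi3-E815X, 40.1 ± 5.77 TPM in swi3del and 9.16 ± 1.91 TPM in SWI3. YGP1, a secreted stress glycoprotein named after its values were seen, was like YRO2 lowest in the allele. It had a mean of 16.1 TPM in swi3-E815X, 24.1 TPM in swi3del and 101 TPM in SWI3. Its difference to swi3del was -0.55, and it too did not pass after quantile scaling (-0.17, adjusted p = 0.2).

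A further rule took called genes that lay above both other strains, or below both, by 2-fold or more. By it 3 were found, and all were lower in swi3-E815X than in either. Genes at a level between the other strains, such as PHO12, were outside this rule. PLB1, a phospholipase B of the cell surface, had 31.6, 29.0 and 27.7 TPM in swi3-E815X, 195, 191 and 217 TPM in swi3del and 71.2, 61.1 and 60.6 TPM in SWI3. GPP2, a glycerol-3-phosphate phosphatase of the osmotic response, had 17.0, 15.97 and 18.4 TPM in swi3-E815X, 44.7, 42.5 and 49.4 TPM in swi3del and 43.6, 42.1 and 37.3 TPM in SWI3, so deletion and wild type were alike in range and the allele alone was low. PRM7, a pheromone-regulated membrane protein, had 10.4 ± 0.412 TPM in swi3-E815X, 23.1 ± 2.56 TPM in swi3del and 48.4 ± 11.7 TPM in SWI3. These are descriptions, since the rule used the differences themselves.

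Retrotransposons were well represented among the genes at a middle level. Ty1 and Ty2 are copia-type elements whose reading frames encode Gag and Gag-Pol, and their many copies are near-identical, so single copies share reads and the sum over copies is the safer value. The 61 annotated Ty1 reading frames summed to 2314, 2327 and 2393 TPM in swi3-E815X, 1251, 1287 and 1245 TPM in swi3del and 5236, 5123 and 5276 TPM in SWI3. The groups did not overlap, and the allele stood between the deletion and the wild type. The 20 Ty2 reading frames summed to 532 ± 27.7 TPM in swi3-E815X, 272 ± 20.01 TPM in swi3del and 1181 ± 42.0 TPM in SWI3. Of the Ty1 frames 43 were higher and 2 were lower than in swi3del (56 and 0 after median-ratio scaling). Of the Ty2 frames 20 were higher and 0 were lower (20% and 47.4% over all genes). Of the 3 tested reading frames of Ty3, 0 were higher and 2 were lower (0 after median-ratio scaling). They summed to 59.5 ± 3.71 TPM in swi3-E815X, 71.2 ± 2.29 TPM in swi3del and 58.6 ± 4.40 TPM in SWI3. Of 5 Ty4 frames 2 were tested, and 0 were higher and 0 were lower. Their sums were low, at 3.45 ± 0.545 TPM in swi3-E815X, 4.19 ± 0.338 TPM in swi3del and 3.89 ± 0.354 TPM in SWI3. The list of Ty reading frames was drawn up after their values were seen. It holds frames that lie inside an annotated Ty element of R64, so any Ty frame outside one is counted with the other genes.

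Shares were then counted over all genes at least 4-fold apart between swi3del and SWI3. Of 76 genes lower in swi3del (1.19% of those tested), 16 had a share of 75% or more, 57 lay between 25% and 75% and 3 were under 25%, with a median of 50.9%. Of these genes 37 were reading frames inside annotated Ty1 or Ty2 elements, which lay between 41.0% and 66.0%. The other 39 had a median of 67.3%, with 16, 20 and 3 in the 3 bands. Of 226 genes higher in swi3del (3.54%), 187 had a share of 75% or more, 38 lay between and 1 was under 25%, with a median of 89.9%. After median-ratio scaling the medians were 55.6% and 88.0%. The 3 genes under 25% among those lower in swi3del were YGP1, PHO5 and PHO89. Middle values among those higher in swi3del included IMD2, an IMP dehydrogenase gene (59.2%), and SPO24, a small gene of sporulation (47.0%), and among those lower in swi3del FRE1, a ferric reductase (71.9%). These shares rest on the same swi3del and SWI3 libraries that chose the genes and are given as a description.

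**Figure D5:**
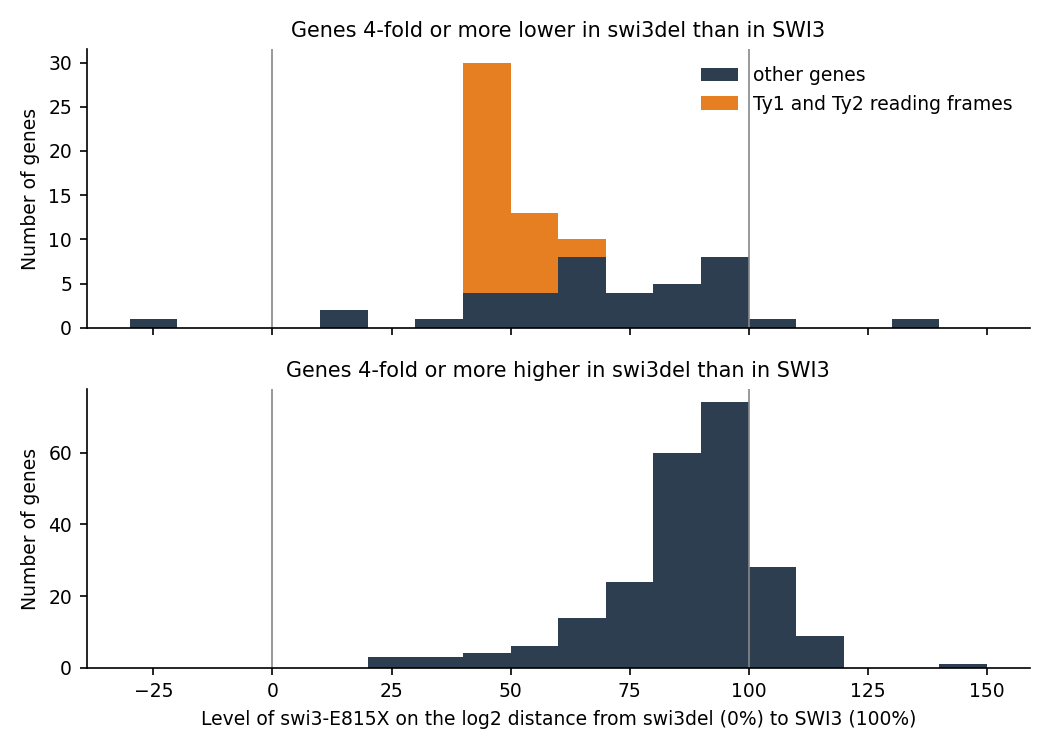
Number of genes by the level of swi3-E815X on the log2 distance from swi3del (0%, left grey line) to SWI3 (100%, right grey line), in bins of 10%, for genes 4-fold or more lower (top, 76 genes) or higher (bottom, 226 genes) in swi3del than in SWI3. Ty1 and Ty2 reading frames (orange) lie in the bins between 40% and 70%, while most genes in the lower panel lie above 75%.

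Genes were also chosen from libraries that the comparison does not use. Strains snf2del and SNF2 of the same series lack and carry the ATPase of the complex. In snf2del, 65 genes were at least 4-fold lower than in SNF2. Of these, 64 were higher in swi3-E815X than in swi3del and 0 were lower (20% and 47.4% over all genes). The median was 1.55, and 1 gene did not pass. That one was YER145C-A (1.25 ± 0.50, adjusted p = 0.08, and between 0.00751, without swi3-E815X replicate 1, and 0.201 over the settings tried). Without the 26 Ty reading frames among them, 38 of 39 were higher. Of 289 genes at least 4-fold higher in snf2del, 278 were lower in swi3-E815X than in swi3del, 1 was higher and 10 did not pass, with a median of -2.05. The 1 higher gene, YLL066W-A, lies in a repeated region near a chromosome end (1.34 ± 0.27, adjusted p = 0.00515, and 0.122 or 0.178 when 9 or 21 libraries shared the estimate of spread). After median-ratio scaling the counts in the same directions were 64 of 65 and 278 of 289.

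Genes at the ends of chromosomes were counted apart from the rest. Of 225 genes with a place in the first or last 20 kb of a chromosome, 162 (72.0%) were lower in swi3-E815X than in swi3del, against 46.9% of 5716 genes elsewhere on the nuclear chromosomes, and 16 (7.11%) were higher, against 21.3% elsewhere. The medians were -0.73 at the ends and -0.23 elsewhere. Many of these genes belong to the COS, seripauperin and other repeated families, whose copies share reads. Both this choice of genes and the choice in the SNF2 strains were added after seeing the data.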

How the data were processed

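RNA of 21 libraries was sequenced after poly(A) selection with a directional kit, per the labels' protocols. Per the submitters' processing notes, HISAT2, StringTie and DESeq2 were among the tools, and the genome went by the names sacCer3 and R64, which are 1 assembly. Versions, settings and the use of strand in counting: not given in the sources used here. The authors deposited TPM for 6407 genes, per the file headers, and tables of their own comparisons with a log2 fold change and p-values, per the file headers, which were used only where named. Columns of samples left unused numbered 0. The depth is unknown, so no counting interval is given.

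From the TPM, log2(TPM + 1) was fitted with limma 3.58.1 (R 4.3.3, statmod 1.5.0) with trended and robust moderation for the 6392 genes that reached 1 TPM in 3 or more of the 6 libraries of swi3-E815X and swi3del (15 genes were not tested). A call is a two-sided Benjamini-Hochberg adjusted p under 0.05 over all genes tested, and 2-fold is a log2 difference of at least 1 in size. Differences to SWI3 come from a fit of the 9 libraries of the 3 strains. Every adjusted p is limma's, with n = 3 libraries per group. The deposited values of SNF2 itself are not reported here. Members, gene lists (42) and rules were chosen with earlier results of these data known. Named genes are SWI3 and LEU2, and the 12 largest called differences each way (2-fold, 10 TPM in the higher group, no overlap). Also named are 10 genes near the deletion and those above or below both strains by 2-fold or more. The rest are up to 3 per list, all genes of the phosphate, arginine, sulfur, serine and Swi/Snf lists, and genes known for Swi/Snf. Not all are printed. Of the names, 5951 matched the R64 annotation and 456 did not. The fit was tested on simulated data. Figures used Python 3.11.15 and matplotlib 3.10.9. Alternatives were other pseudocounts, filters, scalings, moderation and sets of libraries, a replicate block and fits that left out 1 library at a time.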

Additional observations from a re-analysis of the deposited data

How the results depend on the processing

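The counts of genes depended on the scaling between libraries. Genes higher in swi3-E815X than in swi3del numbered 2102 after median-ratio and 2251 after quantile scaling, against 1280 as deposited, and those higher by 2-fold or more 423 and 404, against 191. Genes lower numbered 1919 after quantile scaling, against 3028, and those lower by 2-fold or more 665 after median-ratio and 535 after quantile scaling, against 1002. The median of all genes was 0.00 after median-ratio and 0.06 after quantile scaling, against -0.25. The pseudocounts, filters, moderation and sets of libraries tried kept each of these counts within 1.5 times. With 1 library left out at a time, genes higher numbered 1153 to 1252, lower 2774 to 2955, higher by 2-fold or more 175 to 218 and lower by 2-fold or more 976 to 1038.

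Of 1718 values of 108 genes under these settings, 1658 kept their direction and their side of the threshold and 10 changed sign, for the genes named here, none of which passed as deposited. After median-ratio scaling the difference was 0.14 for PHO87, 0.08 for PHM8, 0.12 for ARG1 and 0.25 for MET6. After quantile scaling it was 0.08 for PHO87, 0.22 for PHM8, 0.06 for ARG1 and 0.38 for TIR3. With 1 library left out at a time, MET6 lay between -0.07 and 0.06, with 0.06 without swi3-E815X replicate 3 and 0.01 without swi3del replicate 2.

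Samples with the same replicate number deviated together only weakly (r = 0.188, 0.048 and 0.118 across genes). For unlike numbers r lay between -0.265 and 0.147. These ranges overlap, and the numbers were not taken to pair the samples. With the replicate block 1333 genes were higher and 3106 lower, 195 and 1009 of them by 2-fold or more. Each group is 3 libraries, per the labels collected on separate days, of 1 strain construct, and the depth behind the TPM is unknown, so for genes of few transcripts the counting error could not be set beside the spread of replicates.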
